A study of Mus musculus with 4 samples.

Results

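The mononuclear cells of blood, labelled as mouse, collected 96 h after the start of cerulein pancreatitis were compared with those collected at 24 h. The comparison asks what had returned to the level of the untreated blood and what had not when the disease passed from its initial phase, to which the labels assign 12 h and 24 h, into recovery, to which they assign 96 h. Cells were kept where at most 10% of their unique molecular identifiers (UMIs, 1 per captured RNA molecule) came from mitochondrial genes. This left 11371 cells at 24 h and 13561 at 96 h, together 24932 of the 48032 cells that pass the same filter in the whole series and of the 53380 deposited.

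By its labels the control library was taken at 0 h from wild-type C57BL/6J mice of 6 to 8 weeks, and the 12 h, 24 h and 96 h libraries from mice of the same strain and age given 7 intraperitoneal injections of cerulein, with a listed dose of 60 mg/kg. Cerulein is a cholecystokinin analogue that overstimulates the acinar cells of the pancreas and so brings on acute pancreatitis. Each time had 1 library, and the labels do not say how many animals went into it, so no difference between times has a replicate check and no p-value is given. The series' design text gives the last time as 168 h, and the sample labels, followed here, give 96 h. Mononuclear cells were separated on a density gradient, which removes most granulocytes, and sequenced from the 5′ end of the transcript in droplets.

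Sterile injury of the pancreas releases cytokines and damaged-cell products into the blood, and circulating leukocytes respond in number and in state. Type I interferon drives a shared set of antiviral genes. Class II molecules of the major histocompatibility complex (MHC) present peptides to helper T cells, and their level on blood monocytes is a widely used readout of immune competence in acute pancreatitis and sepsis. Glucocorticoids, which the adrenal gland releases under stress, raise Fkbp5 and the metallothioneins in many cell types.

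Cells were sorted in silico into lineages by raw UMIs of a few genes, and a cell had to pass exactly 1 gate. The T gate asks for at least 2 UMIs of Cd3e, Cd3d and Cd3g together, and the B gate for at least 3 UMIs of Cd79b, Ms4a1 and Fcmr. The Lyz2 gate asks for at least 5000 CPM (counts per 1000000 UMIs, taken per cell here and over the summed UMIs of a gate below) of Lyz2. The NK gate asks for at least 4 UMIs of Nkg7 and Gzmm with no UMI of Cd3d or Cd3g. These gate genes, and the shares of cells that pass, are set by the gates, so gate genes are not reported as findings.

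Markers that the gates do not use were set beside the lineages. Pax5, the transcription factor that sets B cell identity, stood at 19.4 to 25.1 CPM in the B gate and at most 0.297 in any other gate. Csf1r, the receptor that monocytes need for survival, stood at 803 to 1240 CPM in the Lyz2 gate, and Ncr1, an activating receptor of natural killer cells, at 220 to 308 CPM in the NK gate. Bcl11b, a transcription factor of T cells, stood at 138 to 194 CPM in the T gate and 14.7 to 20.5 in the NK gate. Lck and Cd2, also on the T cell marker list, did not set the T gate apart, since they stood at 360 to 471 and 318 to 379 CPM there and at 429 to 586 and 376 to 698 CPM in the NK gate. Cd22, on the B cell list, stood at 65.4 CPM in the B gate and 61.8 in the Lyz2 gate at 0 h, and at 38.1 and 19.6 at 96 h. Of the monocyte list, Cybb stood at 540 to 558 CPM in the B gate and 1088 to 1577 in the Lyz2 gate. Fcer1g stood at 1915 to 2168 CPM in the NK gate and 2774 to 3350 in the Lyz2 gate. The other listed B cell, monocyte and NK cell markers were also highest in their own gates.

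The data went against the species on the labels. Of the 16152 gene names in the files, 28 begin with RT1-, the rat MHC, 1691 with AABR07 and 238 with RGD, both prefixes of rat gene models, and 0 begin with H2-, the mouse MHC. Thy1, carried by mouse T cells but lost from mature T cells of the rat, stood at no more than 0.764 CPM in the T gate. Cd8a, found on NK cells of the rat and not on those of the mouse, stood at 713 to 948 CPM in the NK gate. Cd4, which rat monocytes carry and mouse monocytes do not, stood at 51.0, 46.4, 30.9 and 35.2 CPM in the Lyz2 gate and at 17.9, 21.3, 15.3 and 19.2 CPM in the T gate. Names are therefore printed as the files give them, no mouse sequence or coordinate is set beside them, and the strain and age above are the labels' alone.

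The deposited libraries held 60515205 to 79516878 UMIs, and the median kept cell had 5057 UMIs at 24 h and 4849 at 96 h. Cells of several gates made up 579 cells at 24 h and 911 at 96 h, and 225 and 250 cells passed no gate. The 24 h and 96 h barcode lists shared 0 barcodes, but the 24 h list is identical to that of 12 h and does not match its own matrix in number (11663 barcodes for 12588 cells). Cells with identical counts in different libraries numbered 0. RNA of acinar and erythroid cells was low: genes of pancreatic acinar cells summed to 18 CPM at 24 h and 8.73 at 96 h over all cells, and erythroid genes to 54.5 and 93.7 CPM. Endothelial genes summed to 22.4 and 19.9 CPM, platelet genes to 77.7 and 29.9, and basophil and mast cell genes to 3.24 and 28.4. The dendritic cell list, which holds Cd8a and Bst2, summed to 575 and 598 CPM.

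The makeup of the blood differed between 24 h and 96 h chiefly in the Lyz2 gate and the T gate. Lyz2-gate cells made up 32.6%, 31.9%, 41.7% and 14.3% of cells in the libraries of 0 h, 12 h, 24 h and 96 h. The 96 h share was 0.343 times the 24 h share (95% interval 0.328 to 0.360, counting error only) and also lay below the control. T-gate cells made up 26.7%, 19.1%, 21.1% and 42.0% in the same order, a ratio of 96 h to 24 h of 1.99 (1.91 to 2.08). Thus neither share at 96 h was that of the control: the T share lay above it and the Lyz2 share below it. Shares of 1 total are tied to each other, and absolute cell numbers were not measured.

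B-gate cells made up 28.0%, 31.7%, 26.2% and 31.2% of cells, a ratio of 1.19 (1.14 to 1.24) between 96 h and 24 h. NK-gate cells made up 3.13%, 7.05%, 3.96% and 3.98%, and their ratio of 1.01 (0.890 to 1.14) includes 1. Shares after each cell was thinned to 2000 UMIs gave the same order, with 43.2% of cells in the Lyz2 gate at 24 h and 15.5% at 96 h, and 19.7% and 40.7% in the T gate.

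**Figure D1:**
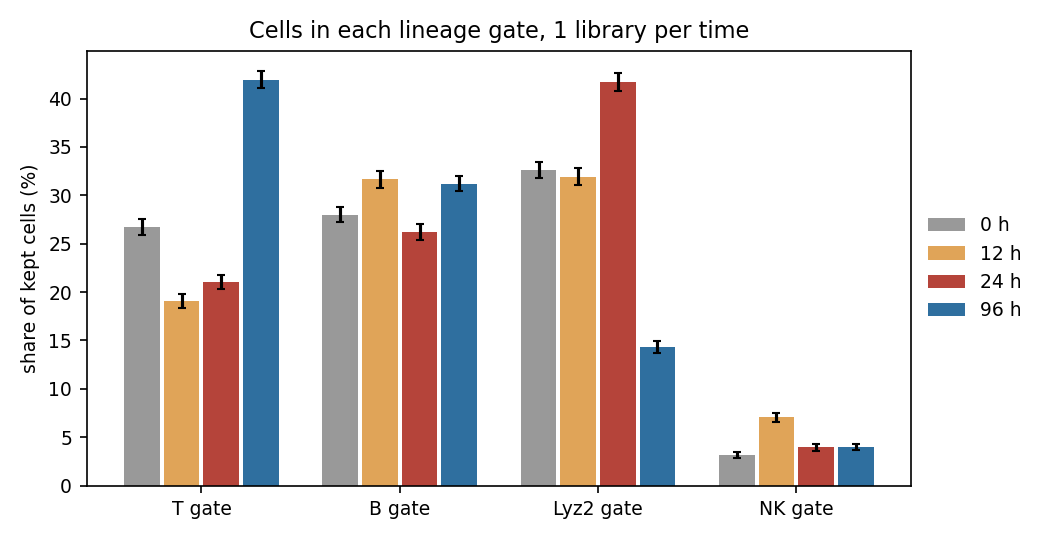
Share of kept cells (%) in each lineage gate in the 4 libraries (grey 0 h, orange 12 h, red 24 h, blue 96 h); bars are 1 library each and error bars are exact binomial (Clopper-Pearson) 95% intervals, which cover counting error only. The T gate goes from 21.1% at 24 h to 42.0% at 96 h and the Lyz2 gate from 41.7% to 14.3%.

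In the Lyz2 gate, which holds the monocytes, interferon and class II genes stood higher at 96 h than at 24 h, and 11 of 21 inflammatory mediators, Mt1, Mt2A and Fkbp5 stood lower. Genes were counted where their level differed at least 2-fold, with at least 50 CPM in 1 of the 2 libraries and 20 UMIs over both. Of 2530 genes tested, 35 (1.38%) were at least 2-fold higher at 96 h and 33 (1.3%) at least 2-fold lower. Against the control library, 24 h had 55 of 2614 genes higher (2.1%) and 62 lower (2.37%), and 96 h had 24 of 2601 higher (0.923%) and 14 lower (0.538%). The gate held 4742 cells at 24 h and 1941 at 96 h.

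Type I interferon genes were low at 24 h and stood near the control at 96 h. Mx1, a GTPase that blocks viral replication, stood at 94.1, 80.3, 7.32 and 93.8 CPM at 0 h, 12 h, 24 h and 96 h. The ratio of 96 h to 24 h was 12.8 (11.2 to 14.7), the highest of any named gene in this gate that reaches 50 CPM. The transcription factor Irf7, which amplifies interferon output, stood at 75.2, 61.3, 9.93 and 66.1 CPM in the same order (ratio 6.66, 5.86 to 7.57). Only the 24 h library was low in both genes, and the other libraries lay close together.

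Ifit3, an antiviral protein of the tetratricopeptide family, stood at 156, 138, 29.1 and 175 CPM (ratio 6.01, 5.57 to 6.48). The ubiquitin-like modifier Isg15 stood at 56.9, 48.7, 13.9 and 62.7 CPM (ratio 4.51, 4.02 to 5.07). Mx2 had the highest ratio of the list, 17.0 (12.8 to 23.1), from 33.6, 24.1, 1.58 and 26.9 CPM. In each of the 3 the dip was confined to the 24 h library among the 4 measured, and 12 h, only 12 h earlier, was at or near the control.

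Of the 38 members of the interferon list, 38 were measured with at least 20 UMIs, and 33 stood at least 1.5-fold higher at 96 h and 1 lower. Over all 10538 genes with that many UMIs, 11.4% stood at least 1.5-fold higher and 6.47% lower. The list's median log2 ratio of 96 h to 24 h was 1.37, against 0.10 over all genes. Its median log2 ratio to the control was -1.47 at 24 h and -0.04 at 96 h, 2 comparisons that share the control library. The exception was Oas1a, an oligoadenylate synthetase, at 13, 50.1, 47.6 and 18.6 CPM (ratio 0.390, 0.338 to 0.448). Without cells rich in S100a8 and S100a9 its ratio was 0.734.

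The interferon difference was spread over most cells of the gate. Summed over the list, the lower quartile, median and upper quartile of cells stood at 741, 1122 and 1705 CPM at 24 h and at 1184, 2039 and 3521 CPM at 96 h. In the control they stood at 1343, 2192 and 3484 CPM. Monocytes fall into a classical kind, marked by Fn1 and Vcan, and a nonclassical kind without them, and the list's median log2 ratio was 1.22 in cells with at least 3 UMIs of the pair and 1.18 in cells with none. The mix of the kinds differed, as 50.3% (48.9% to 51.7%) of the gate had 3 or more such UMIs at 24 h and 44.3% (42.0% to 46.5%) at 96 h, and 27.8% and 37.5% had none. After thinning to 2000 UMIs the shares with 3 or more were 37.5% (36.0% to 38.9%) and 36.7% (34.6% to 38.9%), with overlapping intervals.

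**Figure D2:**
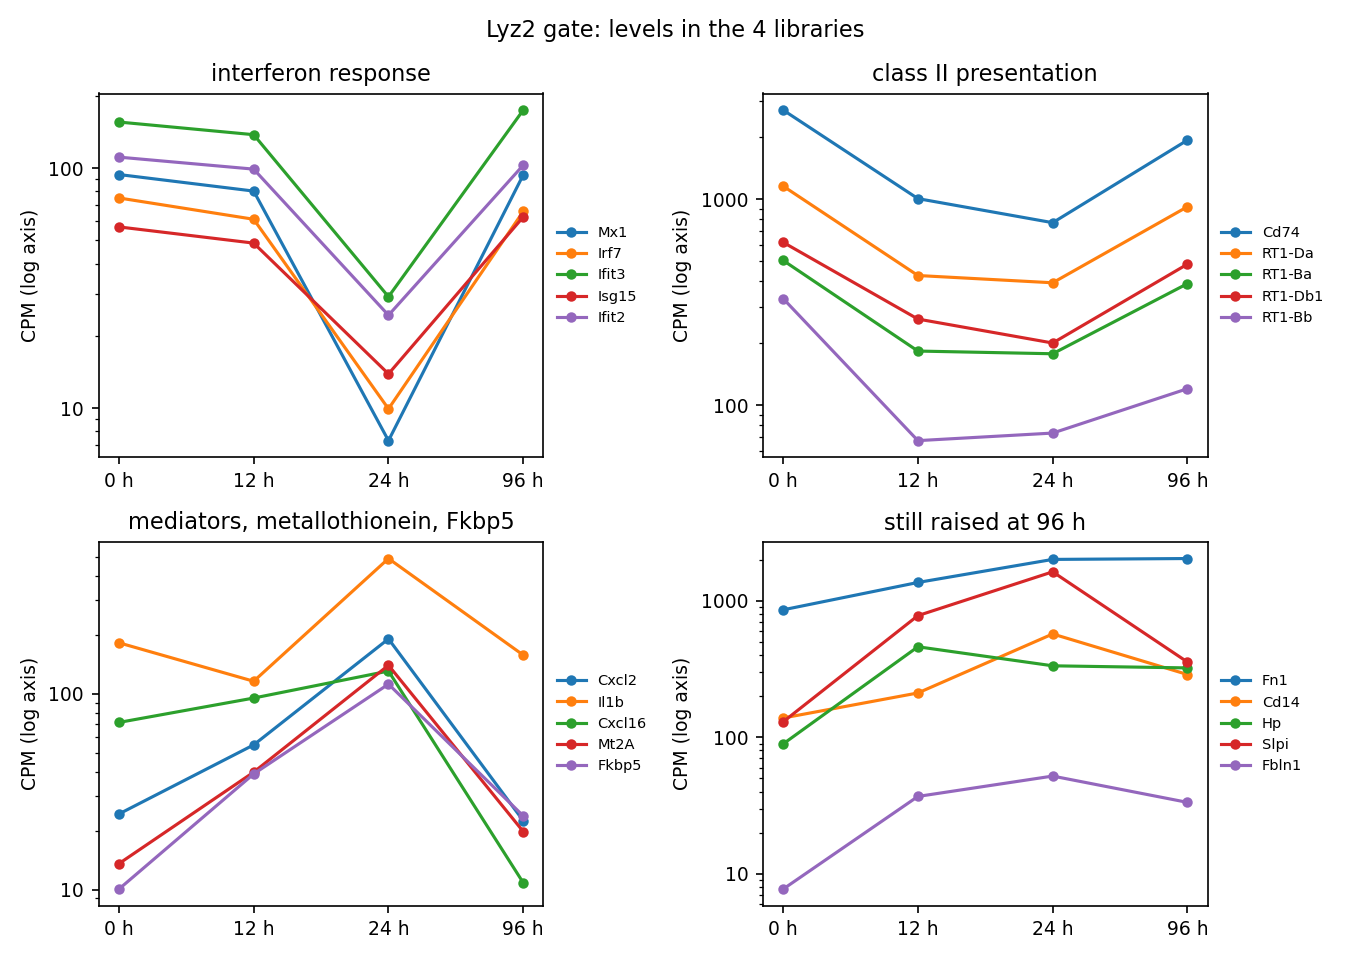
CPM (log axis) of named genes in the Lyz2 gate at 0 h, 12 h, 24 h and 96 h, 1 library per point. Interferon genes dip at 24 h and lie near their 0 h level at 96 h, class II genes lie low at 12 h and 24 h, mediators peak at 24 h, and Fn1, Hp, Cd14, Slpi and Fbln1 are still above 0 h at 96 h.

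Class II genes came back in part. Cd74, the invariant chain that guides class II molecules, stood at 2710 CPM at 0 h, 1007 at 12 h, 769 at 24 h and 1937 at 96 h (ratio of 96 h to 24 h 2.52, 2.47 to 2.56). The class II chain genes RT1-Da and RT1-Ba stood at 1158, 426, 393 and 920 CPM and at 505, 183, 178 and 389 CPM. Each was already low at 12 h, unlike the interferon genes, and within 1.5-fold of the control at 96 h. RT1-Bb, a further chain gene, stood at 329, 67.2, 73.2 and 120 CPM and remained more than 2-fold below the control.

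All 10 measured class II members stood at least 1.5-fold higher at 96 h than at 24 h, with a median log2 ratio of 1.25. To the control, the list's median log2 ratio was -1.59 at 24 h and -0.34 at 96 h. Per cell, the list summed to a median of 1501 CPM in the control, 226 at 24 h and 663 at 96 h, so the typical cell stood further from the control than the sum over cells did. The lower quartile of cells had no class II UMI at 24 h and 275 CPM at 96 h.

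Class I genes differed among themselves. RT1-T24-3 stood at 321, 268, 97.7 and 397 CPM (ratio 4.07, 3.89 to 4.25) and RT1-S3 at 296, 207, 92.4 and 286 CPM (ratio 3.10, 2.95 to 3.25). RT1-A1, in contrast, stood at 1682, 834, 603 and 761 CPM and was still more than 2-fold below the control at 96 h. These genes are close copies of each other, so reads may have been shared among them and the values are uncertain. Of 20 measured class I and peptide loading members, 5 stood at least 1.5-fold higher and 0 lower, with a median log2 ratio of 0.36.

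Several inflammatory mediators were high at 24 h and near or below the control at 96 h, while S100a8 and S100a9, on the same list, were lower than at 24 h but still above the control. Cxcl2, a chemokine that draws neutrophils, stood at 24.3, 54.8, 191 and 22.5 CPM (ratio 0.118, 0.104 to 0.133). Il1b, the cytokine interleukin-1 beta, stood at 182, 116, 491 and 158 CPM (ratio 0.321, 0.306 to 0.337). Cxcl16, the ligand of CXCR6, stood at 71.4, 95.1, 131 and 10.8 CPM (ratio 0.0828, 0.0692 to 0.0984), lower at 96 h than in any other library. For Cxcl2 and Il1b the 96 h library matched the control within 1.5-fold, whereas Cxcl16 and the hormone resistin (Retn, 17.9, 41.1, 62.6 and 9.60 CPM) lay below it.

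Of 21 measured inflammatory mediators, 11 stood at least 1.5-fold lower at 96 h and 0 higher. The median log2 ratio was -1.0, and to the control it was 1.24 at 24 h and 0.04 at 96 h. The list's summed level was 1681, 16365, 6154 and 2304 CPM, S100a8 and S100a9 included. The median was -1.32 in cells with 3 or more Fn1 and Vcan UMIs and -0.54 in cells with none. Acod1, the enzyme that makes itaconate, stood at 1.25, 0.386, 46.0 and 1.38 CPM, so it was above 2 CPM at 24 h alone. Among NF-kB feedback genes and targets 11 of 21 stood lower and 1 higher (median log2 ratio -0.61). The inhibitor Nfkbia itself stood at 2245, 1316, 1983 and 1300.4 CPM, with no peak at 24 h.

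The metallothionein genes Mt1 and Mt2A and the glucocorticoid-induced gene Fkbp5 were also highest at 24 h, but their lists did not move as a whole. Mt2A stood at 13.6, 39.8, 140 and 19.8 CPM (ratio 0.141, 0.124 to 0.161), and its neighbour Mt1 at 167, 278, 547 and 195 CPM. Fkbp5, a co-chaperone of the glucocorticoid receptor, stood at 10.0, 38.9, 112 and 23.8 CPM (ratio 0.212, 0.188 to 0.239) and was still more than 2-fold above the control at 96 h. The glucocorticoid list was divided, with 6 of 16 measured members at least 1.5-fold higher and 6 lower (median log2 ratio 0.37). At the other end of it from Mt2A stood Pik3ip1, an inhibitor of PI3 kinase, at 7.19, 2.46, 2.41 and 8.22 CPM. In the metallothionein and iron list 4 of 13 stood lower and 2 higher.

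Genes that persisted in the Lyz2 gate included Fn1, Vcan and Cd14 of classical monocytes and several genes of secreted proteins. Of the 55 genes at least 2-fold above the control at 24 h, 21 had returned to within 1.5-fold of it at 96 h, 20 were still at least 2-fold above, 13 lay between and 1 (Retn) lay below. Fn1, which encodes fibronectin, stood at 857, 1360, 2005 and 2036 CPM, and its ratio of 96 h to 24 h was 1.01 (1.0 to 1.03). Haptoglobin (Hp) stood at 89.3, 460, 334 and 322 CPM, and Anxa1, a lipid-binding protein that glucocorticoids induce, at 215, 517, 465 and 466 CPM. All 3 stood at nearly the same level at 24 h and 96 h.

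Others persisted at a lower level than at 24 h. Cd14, the co-receptor for bacterial lipopolysaccharide, stood at 138, 211, 571 and 288 CPM. The protease inhibitor Slpi stood at 130, 777, 1627 and 355 CPM (ratio 0.218, 0.212 to 0.225), and the proteoglycan Vcan at 100, 478, 484 and 243 CPM. The matrix protein gene Fbln1 stood at 7.73, 36.9, 52.0 and 33.4 CPM (ratio 0.642, 0.575 to 0.715). All 4 were highest at 24 h and remained at least 2-fold above the control at 96 h. Cd8a, at 138, 146, 317 and 327 CPM, and the cytokine Osm, at 37.4, 42.0, 88.6 and 87.5 CPM, were as high at 96 h as at 24 h.

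The classical monocyte list had a median log2 ratio to the control of 0.80 at 24 h and 0.75 at 96 h, and the nonclassical list -0.61 and -0.55. Neither moved much between 24 h and 96 h, with medians of -0.05 and 0.10, and 4 of 17 classical members and 1 of 18 nonclassical members stood at least 1.5-fold lower. The share of the gate with 3 or more Fn1 and Vcan UMIs had been 20.6% (19.4% to 21.9%) in the control and 43.3% (41.7% to 45.0%) at 12 h, and its part in these medians was not tested beyond the split by these genes. Of the 62 genes at least 2-fold below the control at 24 h, 41 had returned, 12 lay between and 9 were still at least 2-fold below. The returned ones include Mx1, Irf7, Ifit3, Isg15, Cd74 and RT1-Da, and those still low include RT1-A1 and RT1-Bb.

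**Figure D3:**
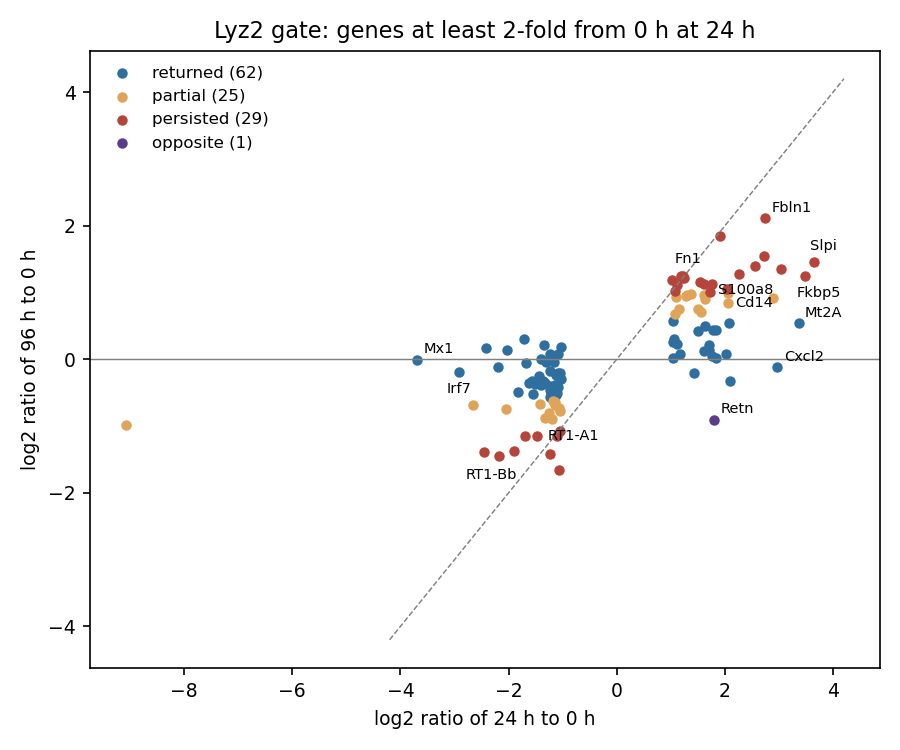
Each point is a gene of the Lyz2 gate that was at least 2-fold from 0 h at 24 h, with its log2 ratio of 24 h to 0 h (x) and of 96 h to 0 h (y), coloured by course at 96 h; the dashed line marks equal ratios and both axes share the 0 h library. Of the 117 genes, 62 returned, 25 lie between, 29 persisted and 1 lies on the other side; the point far left is an unnamed gene model with 4 UMIs at 24 h.

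A few genes were apart from the control at 96 h alone or more than before. Ca5b, a mitochondrial carbonic anhydrase, stood at 37.2, 106, 19.4 and 128 CPM (ratio 6.60, 6.03 to 7.24), high at 12 h and 96 h and low at 24 h. Tppp3, a tubulin-binding protein, stood at 61.2, 19.2, 55.9 and 167 CPM, and Plxdc2, a plexin-domain membrane protein, at 33.0, 13.1, 34.4 and 74.6 CPM. Both matched the control at 24 h and were more than 2-fold above it at 96 h. In all, 6 genes of this gate were within 1.5-fold of the control at 24 h and at least 2-fold from it at 96 h.

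Some sterol and chaperone genes also stood higher at 96 h. Of 23 measured genes of sterol synthesis and uptake, 11 stood at least 1.5-fold higher and 1 lower (median log2 ratio 0.56), among them Hmgcs1, an early enzyme of cholesterol synthesis, at 29.4, 13.3, 12.2 and 24.3 CPM. Of 12 heat shock genes, 5 stood higher and 0 lower, with Hsph1, a large chaperone of the Hsp110 family, at 42.5, 42.4, 20.7 and 52.1 CPM (ratio 2.51, 2.26 to 2.80). By contrast, none of 35 nuclear-encoded respiratory chain subunits and none of 31 proteasome subunits differed 1.5-fold, with medians of -0.13 and -0.07. Of 21 efferocytosis and lipid handling genes 8 stood lower, led by the lipase Lpl at 9.27, 3.66, 34.7 and 3.09 CPM, and 2 higher. For chemokine receptors and adhesion the count was 3 higher and 3 lower of 22.

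The calprotectin genes S100a8 and S100a9, abundant in neutrophils and classical monocytes, were lower at 96 h than at 24 h in all 4 gates. In the Lyz2 gate S100a8 stood at 277, 9171, 2260 and 709 CPM (ratio 0.314, 0.307 to 0.321), and in the B gate at 9.56, 2606, 1448 and 86.4 CPM. The T gate had 4.53, 1752, 927 and 112 CPM and the NK gate 2.59, 1332, 1082 and 331 CPM. The share of cells with at least 1 UMI of the pair was high in every gate at 24 h. It was 90.6% in the T gate, 91.0% in the B gate, 93.9% in the Lyz2 gate and 93.1% in the NK gate at 24 h, and 17.8%, 17.7%, 39.4% and 17.4% at 96 h. After thinning to 2000 UMIs the 4 shares were 53.6%, 77.1%, 67.4% and 58.9% at 24 h and 6.65%, 10.6%, 22.8% and 7.84% at 96 h.

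A few cells carried most of these UMIs. At 24 h, 22 T-gate cells with at least 20000 CPM of the pair held 77.6% of the gate's UMIs of it, and without them S100a8 stood at 219 CPM. In the Lyz2 gate such cells numbered 32 at 0 h, 360 at 12 h, 251 at 24 h and 15 at 96 h, and without them S100a8 stood at 796 CPM at 24 h and 361 at 96 h. In the NK gate 4 such cells held 77.1% of these UMIs at 24 h, and 1 cell of 540 held 95.2% at 96 h. Without them S100a8 stood at 257 CPM at 24 h and 19.6 at 96 h there. At 96 h 6 T-gate cells held 85.2% and 1 B-gate cell 64.8%, and without them S100a8 stood at 18.9 and 31.5 CPM. The median cell had 2 or 3 UMIs of the pair at 24 h and 0 at 96 h in every gate. Genes of the neutrophil marker list went different ways in the Lyz2 gate. From 24 h to 96 h Csf3r went from 102 to 97.5 CPM, Cxcr2 from 3.21 to 0.895, Mmp8 from 33.2 to 10.7 and G0s2 from 520 to 790. The part of free RNA in the S100a8 and S100a9 values of the lymphocyte gates was not tested.

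In the T gate few genes differed between 24 h and 96 h, and most that had left the control level at 24 h were back. Of 1952 genes tested, 12 (0.615%) were at least 2-fold higher at 96 h and 9 (0.461%) lower. Against the control, 24 h had 11 of 1982 genes higher (0.555%) and 14 lower (0.706%), and 96 h had 2 of 1995 higher (0.1%) and 4 lower (0.201%). The gate held 2394 cells at 24 h and 5690 at 96 h. Of the 11 genes higher at 24 h, 9 had returned and 2, S100a8 and S100a9, had not. Of the 14 lower, 7 had returned, 4 lay between, 2 were still low and 1 lay above the control.

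Among the genes higher at 96 h were Lgals9 and Jun. Lgals9, a galectin that binds receptors on T cells, stood at 63.6, 72.5, 29.8 and 70.7 CPM (ratio 2.37, 2.15 to 2.62). Jun, a subunit of the AP-1 transcription factor, stood at 62.2, 15.1, 33.3 and 71.9 CPM (ratio 2.16, 1.97 to 2.38). Lgals9 was low at 24 h alone, whereas Jun was lowest at 12 h. The tubulin gene Tuba1a (48.0, 69.4, 24.6 and 52.0 CPM) and Hexim1, which restrains transcription elongation (44.4, 34.5, 27.7 and 56.6 CPM), were also 2-fold higher at 96 h than at 24 h.

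Among the genes lower at 96 h, Fkbp5 stood at 27.7, 51.9, 94.9 and 33.6 CPM (ratio 0.354, 0.328 to 0.382), near the control again at 96 h. Oaf stood at 18.9, 18.6, 61.0 and 21.1 CPM (ratio 0.346, 0.314 to 0.380), and Mt1 at 83.7, 144, 210 and 101 CPM (ratio 0.482, 0.459 to 0.505). All 3 peaked at 24 h. Fkbp5 was also lower at 96 h in the NK gate, at 46.1, 74.3, 162 and 74.2 CPM, and in the B gate, at 11.7, 22.1, 35.1 and 14.5 CPM, where it was below the 50 CPM asked for.

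Single activation and cytokine feedback genes were lower at 96 h in the T gate. Cd69, an early activation marker that holds lymphocytes in tissue, stood at 134, 131, 230 and 102 CPM (ratio 0.445, 0.425 to 0.466). Socs3, a feedback inhibitor of STAT3 signalling, stood at 3.15, 9.93, 24.9 and 9.83 CPM, and Batf, an AP-1 family factor, at 25.2, 63.6, 66.5 and 37.0 CPM. Of 19 measured genes of STAT3 and cytokine feedback, 6 stood at least 1.5-fold lower and 0 higher (median log2 ratio -0.48). Over all 10877 genes of the T gate 8.09% stood higher and 5.69% lower, with a median of 0.08. One of the 6, Il1r2, a decoy interleukin-1 receptor at 0.287, 9.48, 8.67 and 0.370 CPM, is best known from myeloid cells.

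Among receptors of egress and homing, Cxcr4 was higher by nearly 2-fold and S1pr1 by less than 1.5-fold, and their list was mostly level, with 2 higher and 2 lower of 26. Cxcr4, the receptor for CXCL12, stood at 477, 231, 259 and 510 CPM (ratio 1.97, 1.90 to 2.03), and S1pr1, which lymphocytes need to leave lymphoid organs, at 429, 211, 302 and 422 CPM (ratio 1.40, 1.35 to 1.45). Both were lowest at 12 h and at the control level at 96 h, while the interleukin-7 receptor gene Il7r stood at 34.4, 42.3, 57.4 and 30.5 CPM. Ccl5, a chemokine of cytotoxic cells, was high at 12 h alone, at 434, 1896, 459 and 645 CPM. Foxp3, the defining factor of regulatory T cells, stood at 25.3, 26.2, 13.5 and 10.5 CPM, low at both 24 h and 96 h.

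Most other T cell lists stayed near level. Of 18 T cell identity genes 2 stood at least 1.5-fold higher and 0 lower, of 20 naive and recirculating genes 1 higher and 2 lower, and of 27 activation and regulation genes 2 higher and 5 lower. Among 18 cytotoxic effectors 1 stood higher and 2 lower, with the protease gene Gzma at 34.4, 57.2, 75.2 and 31.6 CPM. Immediate early genes went both ways, with 5 of 20 higher, Jun among them, and 6 lower, led by Fosb at 4.76, 1.07, 10.9 and 3.05 CPM.

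Interferon genes stood higher in the T gate too, in 13 of 35 measured members, and lower in 2, with a median log2 ratio of 0.48. Mx1 stood at 124, 116, 85.5 and 137 CPM (ratio 1.6, 1.51 to 1.70). The lowest ratio on the list belonged to Ifi27, a mitochondrial interferon-induced protein, at 464, 601, 704 and 438 CPM (ratio 0.622, 0.607 to 0.637). Of 13 heat shock genes 6 stood higher and 0 lower (median 0.57), with the constitutive chaperone Hspa8 at 647, 1023, 638 and 945 CPM. Sterol genes counted 7 higher and 1 lower of 25, and mitosis genes 0 higher and 5 lower of 29.

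Genes best known from other cells also moved in this gate. Of 10 measured class II genes 8 stood higher and 0 lower (median 0.99), with a summed level of 765, 631, 265 and 522 CPM against 33267, 25759, 30665 and 32611 CPM in the B gate. Of 17 inflammatory mediators 11 stood lower and 1 higher (median -1.58), a list that contains S100a8 and S100a9. The part of other cells' RNA in these values was not tested.

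In the B gate the interferon genes were again those that stood higher at 96 h. Of 2473 genes tested, 12 (0.485%) were at least 2-fold higher and 16 (0.647%) lower. Against the control, 24 h had 13 of 2478 higher (0.525%) and 7 lower (0.282%), and 96 h had 4 of 2465 higher (0.162%) and 6 lower (0.243%). The gate held 2981 cells at 24 h and 4229 at 96 h. Mx2 stood at 45.6, 51.3, 12.0 and 70.0 CPM (ratio 5.83, 4.83 to 7.09), and Mx1 at 114, 121, 51.3 and 164 CPM (ratio 3.20, 2.91 to 3.53). For both, 24 h was the lowest and 96 h the highest of the 4 libraries.

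Of 36 measured interferon genes 23 stood at least 1.5-fold higher and 1 lower, with a median log2 ratio of 0.72. Over all 10304 genes of the B gate 7.25% stood higher and 6.81% lower, with a median of 0.02. Ifit3 stood at 17.8, 16.6, 4.17 and 16.2 CPM and Isg15 at 15.9, 18.9, 5.46 and 19.5 CPM, the same dip as in the Lyz2 gate at lower CPM. The single lower gene was Oas1a, at 7.74, 20.3, 22.5 and 10.3 CPM, which ran against its list in the Lyz2 gate as well. Per cell, the list summed to a median of 748 CPM at 24 h and 922 at 96 h, with overlapping quartiles of 376 to 1181 and 496 to 1519 CPM.

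Other B-gate genes above 2-fold were of varied function. Tagln2, an actin-binding protein, stood at 550, 345, 293 and 733 CPM (ratio 2.51, 2.41 to 2.61), and Tifa, an adaptor that activates NF-kB, at 65.1, 78.1, 42.3 and 111 CPM (ratio 2.63, 2.37 to 2.93). The lysosomal protease gene Ctsh stood at 171, 199, 167 and 365 CPM, so 96 h alone was high. RT1-T24-3 stood at 78.2, 112, 41.1 and 105 CPM, and RF00015.114, a copy of a small nuclear RNA family whose reads cannot be placed with certainty, at 36.5, 37.7, 25.1 and 63.1 CPM.

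Of the 13 genes above the control at 24 h, 7 had returned at 96 h and 6 had not, and of the 7 below it, 5 had returned and 2 had not. Acer3, an alkaline ceramidase, returned from 316 to 161 CPM, against 116 at 0 h and 143 at 12 h, and Car2, a carbonic anhydrase, from 123 to 71.5 CPM, against 52.1 and 59.1. Oasl2, an interferon-induced gene, stood at 63.6, 60.4, 28.0 and 45.6 CPM, and Mt1 at 78.3, 99.3, 159 and 72.0 CPM. Insig1, which retains the sterol sensor in the endoplasmic reticulum, stood at 85.3, 32.9, 38.2 and 74.7 CPM. The persisting genes named by the rule were S100a8, S100a9 and the neutrophil collagenase Mmp8, the last at 0.382, 53.3, 52.4 and 1.95 CPM. These are best known from myeloid cells. In this gate 10 of 15 inflammatory mediators and 13 of 16 classical monocyte genes stood lower at 96 h, with 0 higher. The part of other cells' RNA in these values was not tested.

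The lists that describe B cells themselves moved little. Of 28 identity and maturation genes 6 stood at least 1.5-fold higher and 1 lower (median 0.20), the lower one being the inhibitory receptor gene Cd22 at 65.4, 64.0, 60.2 and 38.1 CPM. Class II genes, which B cells express in full, counted 1 higher and 0 lower of 11, with a median of 0.14, against 1.25 in the Lyz2 gate. Activation genes counted 2 higher and 2 lower of 18, and plasma cell genes 1 higher and 0 lower of 10, namely the joining chain Jchain at 9.65, 17.4, 6.95 and 12.3 CPM. Sterol genes counted 7 higher and 2 lower of 25, and heat shock genes 4 higher and 0 lower of 12.

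**Figure D4:**
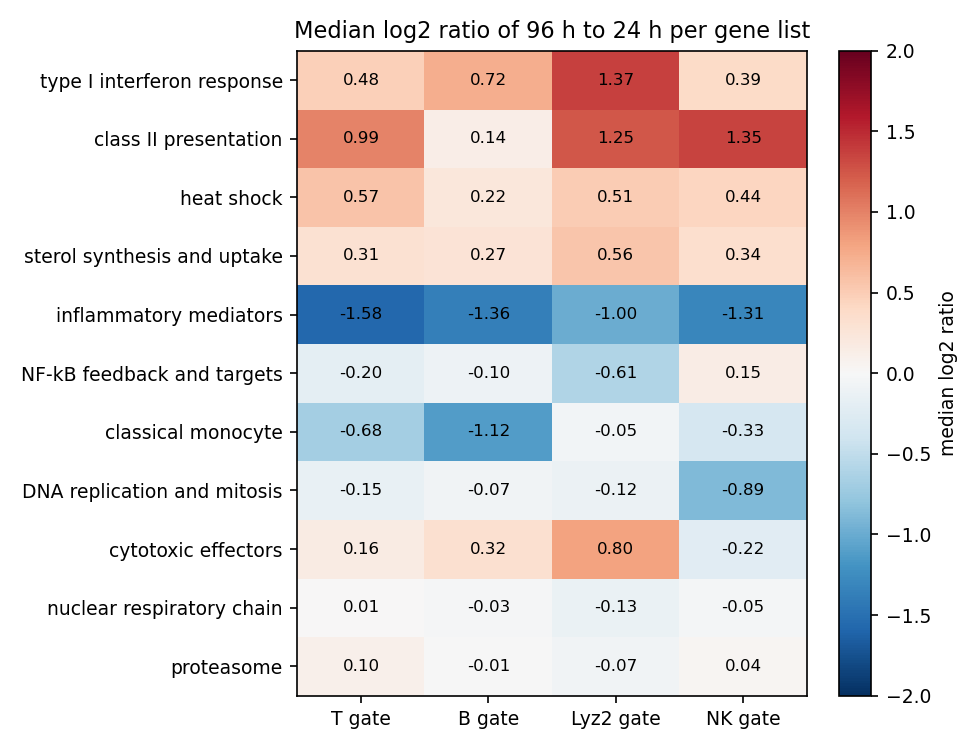
Median log2 ratio of 96 h to 24 h over the measured members of 11 gene lists (rows) in the 4 gates (columns), with red above and blue below 0. Interferon medians are above those of all genes in each gate and highest in the Lyz2 gate (1.37). Class II stands at 1.25 there and at 0.14 in the B gate, and mitosis genes stand apart in the NK gate (-0.89). Class II genes in the T and NK gates, monocyte genes in lymphocyte gates and cytotoxic genes in the Lyz2 and B gates are mostly best known from other cells. So are many mediators in lymphocyte gates, but not all. Which cells their RNA came from was not tested.

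In the NK gate genes of cell division were high at 24 h and back at the control level at 96 h. The gate held 450 cells at 24 h and 540 at 96 h, the fewest of the 4 gates, so its intervals are the widest. Of 2503 genes tested, 23 (0.919%) were at least 2-fold higher at 96 h and 25 (0.999%) lower. Against the control, 24 h had 20 of 2473 higher (0.809%) and 12 lower (0.485%), and 96 h had 15 of 2503 higher (0.599%) and 6 lower (0.24%).

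Stmn1, a regulator of microtubules in dividing cells, stood at 372, 162, 730 and 358 CPM (ratio 0.490, 0.456 to 0.527). Spc24, a kinetochore subunit, stood at 32.6, 24.1, 92.7 and 32.0 CPM (ratio 0.345, 0.271 to 0.435), and the histone gene Hist1h2an at 145, 115, 385 and 138 CPM (ratio 0.359, 0.320 to 0.401). In all 3 the 24 h library was the highest of the 4, and the 96 h level lay within a few percent of the 0 h level. Cdkn3, a phosphatase of cyclin-dependent kinases, stood at 24.3, 19.4, 68.2 and 25.9 CPM, and Mki67, the proliferation antigen, at 95.3, 70.5, 182 and 88.6 CPM.

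Of 28 measured genes of DNA replication and mitosis, 18 stood at least 1.5-fold lower at 96 h and 0 higher (median log2 ratio -0.89). Over all 8366 genes of the NK gate 9.54% stood higher and 8.22% lower, with a median of 0.04. The list stood at 0.95 at 24 h over the control and 0.09 at 96 h over it. Cells with at least 2 UMIs of Mki67, Top2a and Stmn1 made up 15.6% (12.1% to 19.7%), 5.92% (4.37% to 7.82%), 29.3% (25.2% to 33.8%) and 14.1% (11.3% to 17.3%) of the gate in the 4 libraries in order of time. After thinning to 2000 UMIs these shares were 8.49%, 4.06%, 20.5% and 8.58%. Without such cells the list's median log2 ratio of 96 h to 24 h was 0.08. The cells left out were picked by genes of cell division, Stmn1 of this list among them. A smaller difference without them follows in part from that choice, and no conclusion is drawn from it.

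**Figure D5:**
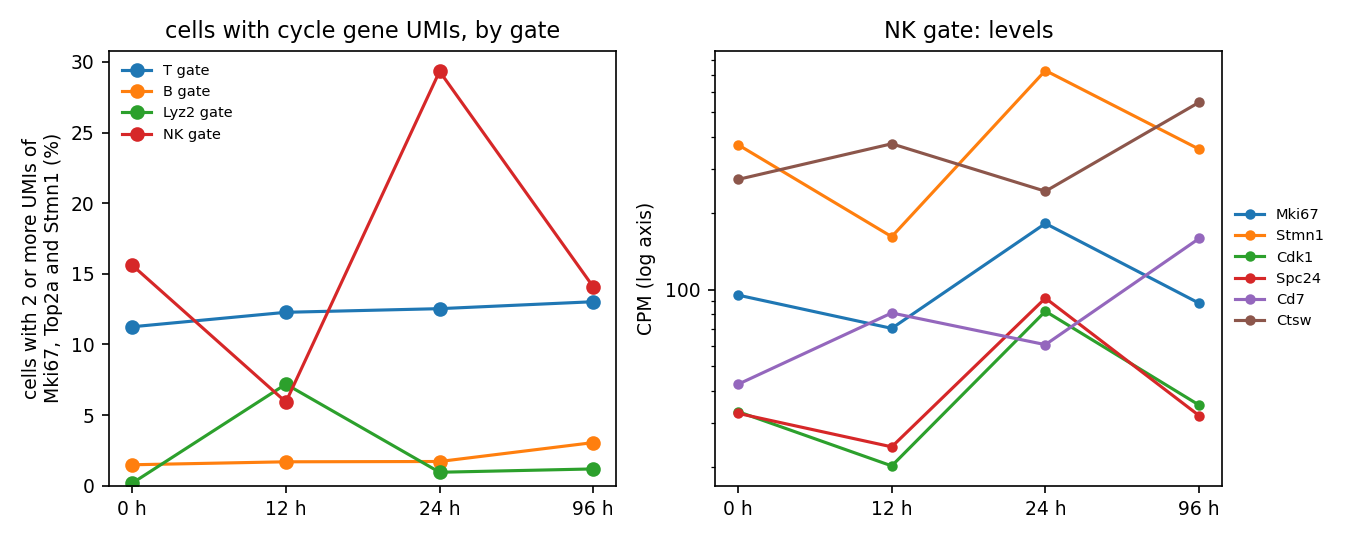
Left, share (%) of cells in each gate with at least 2 UMIs of Mki67, Top2a and Stmn1 at 0 h, 12 h, 24 h and 96 h; right, CPM (log axis) of named genes in the NK gate, 1 library per point. The NK gate reaches 29.3% at 24 h and 14.1% at 96 h while the T gate stays at 11.2% to 13%, and Cd7 and Ctsw are highest at 96 h.

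The same share hardly differed in the T gate, at 12.5% (11.2% to 13.9%) at 24 h and 13% (12.2% to 13.9%) at 96 h. It was 1.71% and 3.05% in the B gate and 0.949% and 1.18% in the Lyz2 gate. In the NK gate the share was highest at 24 h and lowest at 12 h, and the intervals of 0 h and 96 h overlap.

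Genes of NK function were nearly level. Perforin (Prf1) stood at 2761, 2676, 2720 and 2375 CPM, and granzyme B (Gzmb) at 874, 857, 906 and 759 CPM. Granzyme A (Gzma), the lowest of the cytotoxic list, stood at 3278, 2941, 3902 and 2527 CPM (ratio 0.648, 0.629 to 0.667). Of 18 cytotoxic effectors 3 stood at least 1.5-fold higher and 1 lower (median -0.22), and of 32 NK receptors and maturation genes 1 higher and 4 lower (median 0.08). Among genes higher at 96 h, Ctsw, a cathepsin of cytotoxic cells, stood at 272, 376, 244 and 547 CPM (ratio 2.24, 2.05 to 2.45), and the surface protein gene Cd7 at 42.5, 81.1, 60.8 and 159 CPM (ratio 2.62, 2.20 to 3.12).

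Those 2 and the chaperones Hsph1 (23.8, 33.8, 18.5 and 59.5 CPM; ratio 3.22, 2.37 to 4.43) and Dnaja1 (141, 153, 112 and 292 CPM; ratio 2.61, 2.30 to 2.97) were more than 2-fold above the control at 96 h alone. In all, 11 NK-gate genes were within 1.5-fold of the control at 24 h and at least 2-fold from it at 96 h. Heat shock genes counted 5 higher and 0 lower of 12 (median 0.44). The naive and recirculating list counted 7 higher and 0 lower of 16, led by the transcription factor Lef1 at 22.3, 30.0, 21.5 and 54.0 CPM, and chemokine receptors 6 higher and 2 lower of 20.

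Interferon genes counted 13 higher and 0 lower of 34 (median 0.39) in this gate, with Mx1 at 108, 111, 75.9 and 150 CPM (ratio 1.98, 1.69 to 2.33). Ifit3, at 8.29, 16.4, 9.41 and 8.95 CPM, and Isg15, at 43.5, 49.6, 49.7 and 46.7 CPM, showed no dip at 24 h. Sterol genes counted 8 higher and 2 lower of 23. RT1-T24-3 stood at 78.7, 74.6, 46.7 and 117 CPM, and Srsf12, a splicing factor, at 52.8, 76.4, 30.6 and 77.7 CPM.

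Of the 20 NK-gate genes above the control at 24 h, 12 had returned, 2 lay between, 3 had persisted and 3 lay below the control, and of the 12 below it, 8 had returned, 1 lay between and 3 had persisted. Fam111a, a protease linked to DNA replication, stood at 38.3, 29.1, 122 and 5.12 CPM (ratio 0.0419, 0.0237 to 0.0690), high at 24 h and low at 96 h. Thyroglobulin (Tg), not known as a product of blood cells, stood at 26.4, 34.4, 53.4 and 13.4 CPM. Sgk1, a kinase that glucocorticoids induce, stayed low at 55.9, 38.2, 23.9 and 25.9 CPM, and Upp1, a uridine phosphorylase, returned at 18.1, 55.5, 73.6 and 24.6 CPM.

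A few genes passed the 2-fold threshold between 96 h and 24 h in all gates. RT1-T24-3 and an unnamed gene model were at least 2-fold higher in all 4, and S100a8, S100a9 and an unnamed model at least 2-fold lower. Fkbp5 and Mt1 were lower by that measure in 3 gates, Fkbp5 in the T, Lyz2 and NK gates and Mt1 in the T, B and Lyz2 gates. Genes that passed for higher numbered 2 in 4 gates, 2 in 3, 10 in 2 and 48 in 1 gate alone. For lower they numbered 3, 4, 4 and 51 in the same order. Within a gate only 0.485% to 1.38% of tested genes passed for higher and 0.461% to 1.3% for lower. Little overlap is therefore not read as a difference between gates. A gene that passed in 1 gate and missed in the next was not shown to differ between them.

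Measured against the control, the 96 h library was closer to it than the 24 h library in each gate by the number of genes 2-fold away. Within 1.5-fold of the control at 96 h lay 98.2% of tested genes in the T gate, 98.1% in the B gate, 96.4% in the NK gate and 94.0% in the Lyz2 gate. The Lyz2 gate thus had the largest share of genes still away from the control, as it had at 24 h.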

How the data were processed

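The authors deposited, for each of 4 libraries, a matrix of whole-number UMI counts over 16152 gene names, not normalized. The submitters' processing notes name Cell Ranger, Seurat and mm10, without versions or roles, although the gene names are those of a rat annotation, so the build of the counts is uncertain. No header states a filter, and the barcode lists did not match the matrices of 0 h and 24 h in number, so cells were taken as matrix columns.

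From these counts, cells with at most 10% mitochondrial UMIs were gated, and cells of several gates were set apart as possible doublets. Scrublet in scanpy 1.11.5 marked 4.15% of kept cells at 24 h and 4.94% at 96 h, left out only as an alternative. UMIs were summed per library and gate and scaled to CPM. Ratios have exact conditional binomial 95% intervals and shares exact binomial (Clopper-Pearson) ones, while ratios of shares use a log-normal approximation, and all cover counting error only. A gene at 0 UMIs was set to a floor of 3 counts. A list member counts as measured with 20 UMIs over both libraries. The calling of ratios was tested on simulated data. Some genes that meet the naming rule are not reported here. With 1 library per time no test across samples exists.

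The comparison, the gates and the gene lists were chosen with earlier results of these data known. The rule for named genes takes, per gate, the 6 genes with the highest and the 6 with the lowest ratio of 96 h to 24 h among those called, ranked by the interval bound nearest 1. It adds the 4 returned and 4 persisted genes furthest from the control at 24 h, and the highest and lowest member of each list, not all of which are printed. A gene had to reach 25% of its level in the gate where it is highest. Gate, mitochondrial, ribosomal, haemoglobin, immunoglobulin, T cell receptor and sex-linked genes and unnamed models were left out of the naming but not of the counts. Chosen after their values were seen were, in the Lyz2 gate, Cd74, RT1-Da, RT1-Ba, RT1-A1, Il1b, Nfkbia, Acod1, Mt1, Fn1, Hp, Anxa1, Cd14, Vcan, Cd8a, Osm, Tppp3, Plxdc2 and Hmgcs1, in the T gate Socs3, S1pr1, Il7r, Ccl5, Foxp3, Mx1 and Hspa8, in the B gate Ctsh, Ifit3, Isg15 and Fkbp5, and in the NK gate Mki67, Stmn1, Prf1, Gzmb, Mx1, Ifit3, Isg15 and Fkbp5. The genes of rare cells were chosen in the same way. Leaving out cells with at least 20000 CPM of S100a8 and S100a9 was an alternative added after seeing the data. Software was python 3.11.15, numpy 2.4.6, scipy 1.17.1, pandas 2.3.3 and matplotlib 3.10.9.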

Additional observations from a re-analysis of the deposited data

Results flagged for a closer look

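Basophil and mast cell genes were higher at 96 h in cells that no gate takes and that the comparisons above do not use, and also within the gates. Over the cells of no gate, 8 genes of these cells summed to 13 CPM at 0 h, 8.01 at 12 h, 12.6 at 24 h and 760.27 at 96 h. Mcpt8, a protease of basophils, stood at 12.1, 6.78, 12.6 and 406 CPM there, and Gata2, a transcription factor of the basophil and mast cell lineage, had 0 UMIs before 96 h and 125 at 96 h. Cells with at least 10 UMIs of the 8 genes numbered 0 of 12073, 1 of 11027, 2 of 11371 and 27 of 13561, the last a share of 0.199% (0.131% to 0.290%). Of the 27 cells at 96 h, 19 lay in no gate, 1 in the B gate and 3 in the NK gate. The 27 cells held 82.6% of the UMIs of the 8 genes in that library. Of the 2154 UMIs of the 8 genes at 96 h, 1009 lay in cells of no gate. In the B gate the genes summed to 0.992 CPM at 24 h and 31.9 at 96 h, and in the NK gate to 26.5 and 75.5 CPM. Mcpt8 went from 0.496 to 24.0 CPM in the B gate (ratio 48.3, lower bound 20.5) and from 26.5 to 53.4 CPM in the NK gate, where it counts among the genes at least 2-fold higher. How far these gate values rest on the few cells rich in such UMIs was not tested.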

How the results depend on the processing

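No paired analysis was possible because each time has 1 library. Intervals cover counting error alone, so a difference between libraries of the same time could be as large as those printed, and the gates rest on few UMIs per cell. Median-of-ratios scaling moved log2 ratios by -0.10 in the Lyz2 gate and by less in the others, turned no direction, and gave 15 lower genes in the T gate.

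Counts of genes depended on the minimum level, which also sets how many genes are tested. Between 24 h and 96 h the main setting tested 1952 genes in the T gate, 2473 in the B gate, 2530 in the Lyz2 gate and 2503 in the NK gate. Without a CPM minimum these were 10877, 10304, 10538 and 8366. With no CPM minimum, the numbers higher, lower, returned and persisted were 287, 227, 261 and 108 in the T gate, 273, 271, 212 and 102 in the B gate, 450, 328, 512 and 314 in the Lyz2 gate and 232, 279, 206 and 124 in the NK gate. With 100 CPM and 100 UMIs, the T gate had 1 higher, 5 lower and 4 returned, the B gate 6, 8 and 6 with 3 persisted, the NK gate 10, 12 and 6 with 3 persisted, and the Lyz2 gate 21 higher.

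At most 5% mitochondrial UMIs left 1140 cells at 24 h and 1634 at 96 h. Ratios of shares were then 2.97 for T, 2.81 for B and 1.81 for NK. The T gate had 41 lower and 40 persisted, the B gate 108 higher, 140 lower, 57 returned and 101 persisted, and the NK gate 47, 74, 99 and 375. Returned and persisted counts also use the control library, of which this filter kept 584 cells. Of these, 72 lay in the T gate, 34 in the B gate and 17 in the NK gate. The 24 h library kept 160, 43 and 86 such cells. With so few cells, an effect of the filter on these counts and on ratios in these gates cannot be told from counting error. Most of the gene ratios checked did not hold their size: 150 moved, 15 turned and 84 stayed the same. Of the list medians checked, 16 moved and 31 stayed the same. Among the ratios that turned were Tcf7 (1.30), Ifit3 (0.326), Irf7 (0.504), Gata3 (0.805), Hspa4l (0.534), Tubb5 (0.754) and Izumo1r (0.0890) in the T gate, Car2 (1.66), Oasl2 (0.613), Ifit3 (0.266), Ccl4 (0.888) and Nfkbid (0.533) in the B gate, Fn1 (0.826) in the Lyz2 gate and Prf1 (1.12) in the NK gate. With no mitochondrial filter 5 genes persisted in the B gate.

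With cells of 2 gates kept, the Lyz2 share ratio was 0.368, the T gate had 7 higher, 26 lower and 8 persisted, the B gate 21 higher, 57 lower, 22 returned and 4 persisted, and the NK gate 54 lower. With gate thresholds doubled, share ratios were 1.26 for B and 0.322 for Lyz2, and the T gate had 16 lower. Without cells rich in S100a8 and S100a9 the B gate had 8 lower. In cells with 3 or more Fn1 and Vcan UMIs the Lyz2 gate had 67 lower, and Nr4a1 (0.871), Spn (0.682), Eno3 (0.781) and Cd4 (0.631) turned, and in cells with none Icam1 (1.12) and Tnip3 (1.12) did. Without dividing cells, the NK mitosis median log2 ratio (0.085), Mki67 (1.40) and Pcna (1.34) turned. Mki67 was among the genes used to pick those cells, so these turns follow in part from the choice. The cause was not tested in these cases.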

Other observations

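Genes of B cell precursors appeared in the B gate at 96 h. Igll1, a part of the surrogate light chain, had 0 UMIs in the B gate at 0 h, 12 h and 24 h and stood at 11.1 CPM at 96 h. With a floor of 3 counts in the 24 h library its ratio of 96 h to 24 h was 37.2 (lower bound 29.9). Rag1, an enzyme that rearranges antigen receptor genes, stood at 0, 0.163, 0 and 7.48 CPM, and Vpreb1, the other part of the surrogate light chain, at 1.24, 1.79, 0.992 and 6.92 CPM. Cells with at least 3 UMIs of Rag1, Vpreb1, Vpreb2 and Dntt numbered 5, 6, 18 and 39 in the 4 libraries. Over all kept cells Dntt alone held 362 of 391, 300 of 345, 592 of 613 and 368 of 968 UMIs of these genes. The cells counted before 96 h therefore need not be B cell precursors. At 96 h 22 of the 39 lay in the B gate and 14 in several gates, whereas at 24 h 15 of the 18 lay in the Lyz2 gate and 0 in the B gate.

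Platelet genes in cells of no gate summed to 497, 878, 3406 and 799 CPM at 0 h, 12 h, 24 h and 96 h. In all kept cells they summed to 26.4, 78.6, 77.7 and 29.9 CPM, so the 96 h library stood near the control.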
